A study of Mus musculus with 4 samples.

Results

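The guanylate-binding proteins (GBPs) examined here are 9 mouse genes, Gbp2, Gbp2b, Gbp3, Gbp4, Gbp5, Gbp6, Gbp7, Gbp8 and Gbp9, picked by name from the 33696 genes of the count matrices. Gbp10 and Gbp11 complete the 11 Gbp genes in the files and were left outside the set, with 447 and 751 molecules in all deposited cells. All 9 members were detected in each of 4 libraries, from 8590 molecules for Gbp2b to 77511 for Gbp2. The members were chosen with their levels in these libraries known, so levels and differences are given as a description and no test was made.

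Live CD45+ cells were sorted from subcutaneous KPC tumors, which derive from a mouse pancreatic carcinoma, and profiled by single-cell RNA sequencing of the 5′ ends of transcripts. The hosts were male C57BL/6NHsd mice 8 to 10 weeks old, immunocompetent and of the tumor's own strain, and 10 tumors were pooled per group before sorting. The untreated group received neither agent. The ADU-S100 group received 1 intratumoral dose of 2 μg of this cyclic dinucleotide, which activates the cytosolic DNA-sensing adaptor STING, on day 0. The anti-LTβR group received the agonist antibody 4H8 against the lymphotoxin-β receptor, 100 μg in each of 4 injections until day 10. The combination group received both agents, and tumors of all groups were taken on day 14, so the values describe cells 14 days after the STING agonist. Each group is 1 library, and every interval below is an exact 95% interval that covers counting error alone, not the spread between mice. Intervals of levels stand in parentheses and those of log2 differences in brackets. Values for the 4 libraries are given in the order untreated, ADU-S100, anti-LTβR and combination.

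GBPs are large GTPases that interferon-γ induces strongly, through JAK kinases and the transcription factor IRF1, and type I interferons induce them as well. They assemble on the vacuoles and surfaces of intracellular bacteria and parasites, help to disrupt them, and promote inflammasome signaling through caspase-11 (gene Casp4) and AIM2. In tumors their transcripts serve as a readout of exposure of a cell to interferon, and T cells and natural killer (NK) cells are the main producers of interferon-γ. The mouse genes lie in a group on chromosome 3 (Gbp2, Gbp2b, Gbp3, Gbp5 and Gbp7) and a group on chromosome 5 (Gbp4, Gbp6, Gbp8 and Gbp9).

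The start regions of the chromosome 3 genes are shown because this group carried most of the GBP molecules of myeloid cells and because IRF factors bind a defined motif in such regions. Each window runs from 250 bases before to 50 bases after the annotated start of the RefSeq gene, in build GRCm38.p6, on the plus strand. The windows are Gbp5 at chr3:142496684-142496983, Gbp7 at chr3:142530086-142530385, Gbp3 at chr3:142559794-142560093, Gbp2b at chr3:142594597-142594896 and Gbp2 at chr3:142620413-142620712. Capitals mark matches to GAAANNGAAA on either strand, a pair of GAAA repeats as IRF factors bind them.
Gbp5: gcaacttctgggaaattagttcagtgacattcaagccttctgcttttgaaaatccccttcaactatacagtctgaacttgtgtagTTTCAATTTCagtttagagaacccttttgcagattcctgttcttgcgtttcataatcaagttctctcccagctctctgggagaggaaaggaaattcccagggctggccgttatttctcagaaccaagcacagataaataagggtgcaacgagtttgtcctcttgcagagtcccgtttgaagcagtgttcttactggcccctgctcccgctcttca
Gbp7: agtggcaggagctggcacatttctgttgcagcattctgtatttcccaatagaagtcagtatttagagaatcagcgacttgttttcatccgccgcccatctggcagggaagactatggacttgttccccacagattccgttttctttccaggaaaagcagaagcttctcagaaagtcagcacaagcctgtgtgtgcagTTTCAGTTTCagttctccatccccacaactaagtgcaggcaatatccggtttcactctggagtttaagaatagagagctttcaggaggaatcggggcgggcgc
Gbp3: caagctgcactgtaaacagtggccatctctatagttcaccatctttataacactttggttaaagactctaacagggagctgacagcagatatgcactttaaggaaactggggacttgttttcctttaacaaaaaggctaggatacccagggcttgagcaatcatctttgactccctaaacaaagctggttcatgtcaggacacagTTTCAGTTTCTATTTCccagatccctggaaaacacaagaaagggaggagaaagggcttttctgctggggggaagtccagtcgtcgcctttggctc
Gbp2b: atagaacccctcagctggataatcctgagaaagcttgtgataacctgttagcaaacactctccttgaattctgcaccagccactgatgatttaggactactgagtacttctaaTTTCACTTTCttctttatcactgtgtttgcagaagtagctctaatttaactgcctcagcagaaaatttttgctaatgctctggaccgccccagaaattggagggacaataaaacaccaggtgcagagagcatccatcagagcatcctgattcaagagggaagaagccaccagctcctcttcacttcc
Gbp2: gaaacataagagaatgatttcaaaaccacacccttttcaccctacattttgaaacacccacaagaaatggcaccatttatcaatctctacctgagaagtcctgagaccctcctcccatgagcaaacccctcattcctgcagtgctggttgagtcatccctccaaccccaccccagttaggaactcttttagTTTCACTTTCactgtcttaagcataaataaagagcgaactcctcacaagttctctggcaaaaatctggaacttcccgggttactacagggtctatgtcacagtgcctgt

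A GAAA pair was present in the window of each of these 5 members, whereas it was present in 3.44% of all 32851 RefSeq windows of the same length. The match began 59 bases before the start in Gbp2, 137 in Gbp2b, 45 and 39 (overlapping each other) in Gbp3, 165 in Gbp5 and 53 in Gbp7. A second annotated start of Gbp3 (chr3:142560106-142560405) had no match to the motif in its window. These matches describe letters, not bound sites. No window was used for Gbp4, Gbp6, Gbp8 and Gbp9.

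After filtering, 7371, 13224, 13028 and 14398 leukocytes were kept, with 43625212, 66813121, 61444508 and 44843897 UMIs, or unique molecular identifiers, each of which counts 1 transcript molecule. Levels are UMIs of a gene per 1000000 UMIs of the class (CPM), so they are not divided by gene length. The combination library was the shallowest, with a median of 2203 UMIs per kept cell against 3113.5 to 4609.5 in the others. Cell classes were rebuilt from marker genes and are "-like" classes in that sense: macrophages and monocytes made up 54.5, 44.6, 55.6 and 56.4% of leukocytes, neutrophils 6.70, 39.95, 7.47 and 8.95%, T cells 19.0, 4.45, 15.5 and 11.5%, and NK cells 5.70, 2.79, 6.34 and 4.18%. Libraries shared 34 to 83 cell barcodes per pair, 0.227 to 0.539% of a library. RNA of other cells moved with the treatment: the neutrophil marker list in the macrophage and monocyte class summed to 172, 719.5, 270.0 and 279 CPM with none of its 7 markers at 0, and its part in the levels was not tested. In the ADU-S100 library the median gene differed from untreated by -0.20 on the log2 scale in macrophages and monocytes, by -0.23 in neutrophils and by -0.38 over all leukocytes, and in the combination library by -0.15 over all leukocytes, so differences in those comparisons are also given relative to this shift.

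GBP transcripts were present in every named class. Untreated neutrophils and untreated macrophages and monocytes were high and type 1 conventional dendritic cells (DCs) low, while neutrophils lay lower in the treated libraries. In the untreated library the 9 members summed to 1300.2 (1228 to 1376) CPM in neutrophils, 1096 (1084 to 1109) in macrophages and monocytes, 752 (729 to 775) in T cells, 707 (671 to 744) in type 2 conventional DCs, 622 (578 to 669) in mature DCs, 575 (538 to 615) in NK cells, 259.8 (228 to 295) in plasma cells and 158 (137 to 181) in type 1 conventional DCs. T cells and type 2 DCs had overlapping intervals, as did mature DCs and NK cells, while the other neighbors in this order did not overlap. Type 1 DCs, which cross-present tumor antigen to CD8+ T cells, held the lowest sum of the DC classes in every library, with 158, 168, 124 and 98.3 CPM. Macrophages and monocytes supplied 76.4, 74.8, 75.8 and 78.1% of all member UMIs of leukocytes. Neutrophils supplied 2.91, 15.1, 2.39 and 2.52%, and T cells 10.3, 2.98, 8.50 and 5.53%.

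**Figure D1:**
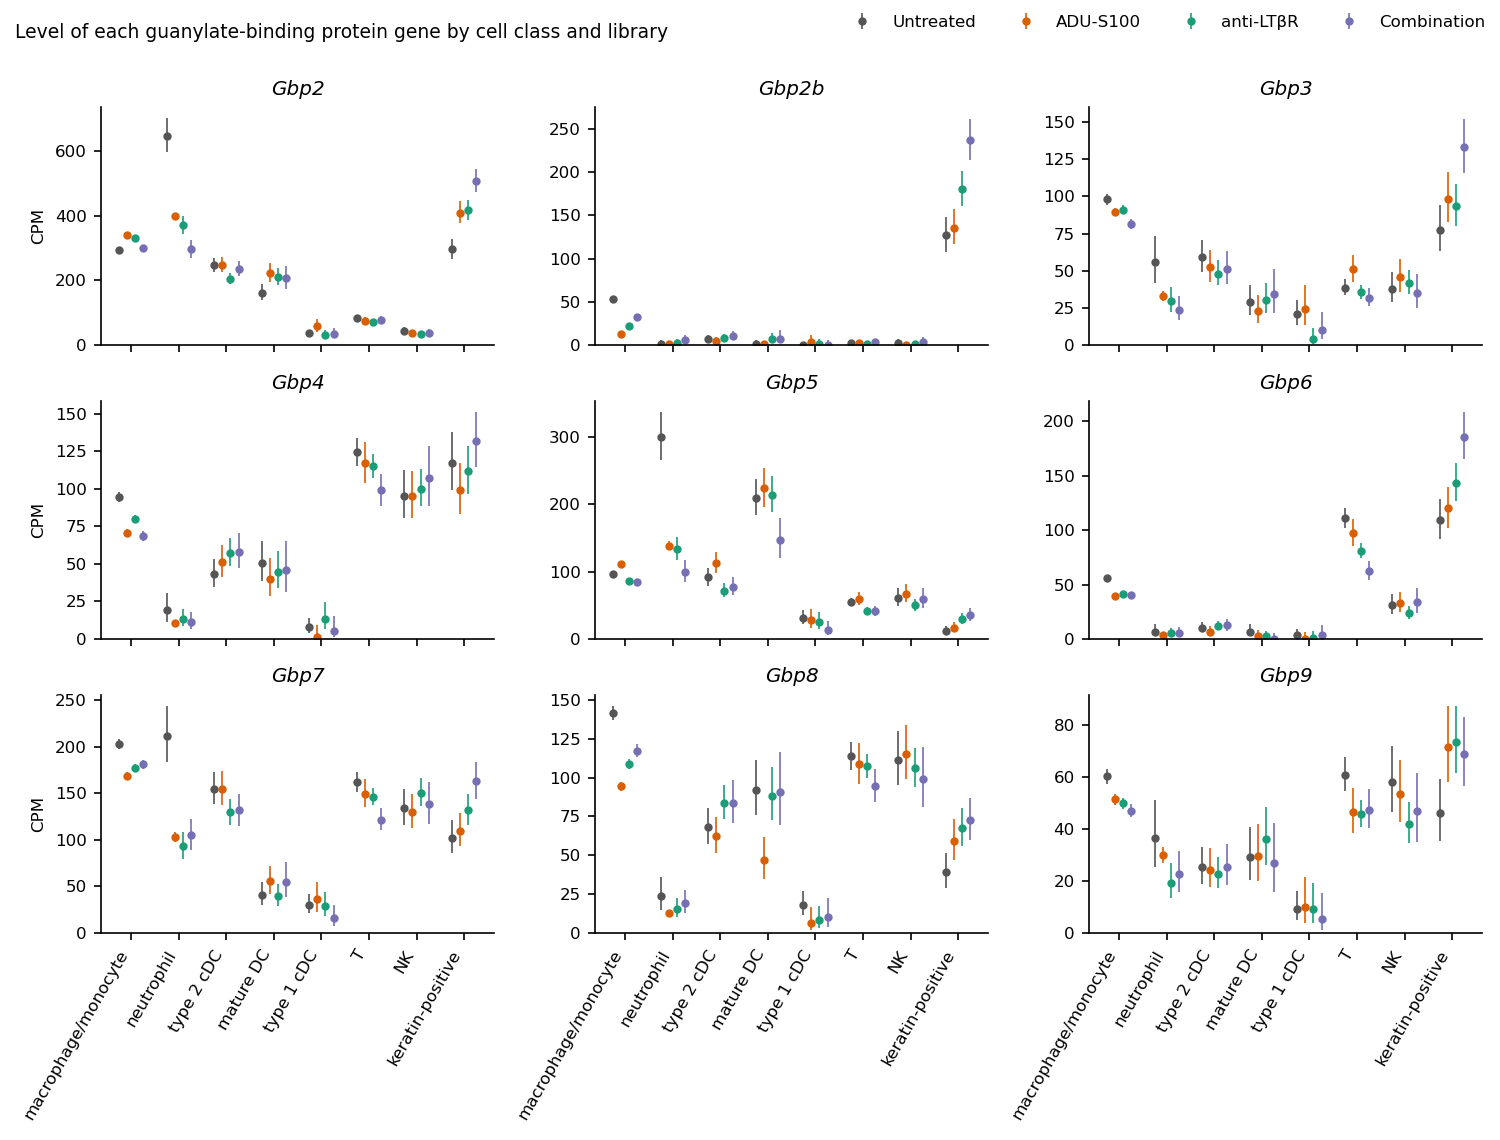
Level of each of the 9 members (CPM, linear axis from 0) in 8 cell classes, 1 panel per gene and 1 point per library, with exact Poisson 95% intervals as bars. Gbp2 and Gbp5 are highest in neutrophils of the untreated library, Gbp6 is highest in T and keratin-positive cells, and Gbp2b is highest in keratin-positive cells and otherwise concentrated in macrophages and monocytes.

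Each member had its own distribution. Gbp2, which coats parasite vacuoles and cytosolic bacteria, was the most abundant member in macrophages and monocytes (294, 341, 331 and 299.5 CPM) and in neutrophils (646, 398, 370.0 and 297 CPM), whereas in T cells it lay below Gbp7, Gbp4 and Gbp8 in all 4 libraries, at 84.7, 75.2, 70.1 and 78.9 CPM. Gbp5, a promoter of inflammasome assembly, reached 299, 138, 134 and 99.5 CPM in neutrophils and 209, 224, 214 and 147 CPM in mature DCs, against 96.6, 112, 86.6 and 84.7 CPM in macrophages and monocytes. Both of these genes were therefore higher in neutrophils than in any other leukocyte class of the untreated library.

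Gbp6, a chromosome 5 member that is recruited to parasite vacuoles, ran the other way, with 111, 97.0, 81.0 and 62.7 CPM in T cells and 55.8, 39.3, 41.0 and 40.6 CPM in macrophages and monocytes but 6.45, 3.86, 5.08 and 5.93 CPM in neutrophils and 6.84, 2.86, 2.45 and 0 CPM in mature DCs. Gbp4 was at 124, 117, 115 and 99.1 CPM in T cells, and Gbp8 at 114, 109, 107 and 94.6 CPM, against 19.4, 10.7, 13.5 and 11.2 and 23.7, 12.8, 15.2 and 19.1 CPM in neutrophils. Gbp4, Gbp6 and Gbp8 were thus lower in neutrophils than in T cells in every library. The fourth chromosome 5 member, Gbp9, was at 36.6, 29.8, 19.2 and 22.4 CPM in neutrophils, above its dendritic cell level of 21.5, 22.0, 24.9 and 22.6 CPM untreated and with ADU-S100 and below it in the other libraries. Gbp6 and Gbp10 are close copies whose reads may have been split or dropped by the counting, so the Gbp6 level carries that uncertainty.

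Gbp2b, also called Gbp1, was the least abundant member over all leukocytes, at 37.3, 9.06, 16.0 and 23.6 CPM. Macrophages and monocytes held 1541 of its 1626 leukocyte UMIs in the untreated library, with 53.1, 12.4, 22.1 and 32.3 CPM over the 4 libraries, whereas it was at 2.46, 2.83, 1.20 and 3.55 CPM in T cells and 1.71, 0.952, 7.36 and 7.42 CPM in mature DCs. The untreated library was the highest and the ADU-S100 library the lowest in macrophages and monocytes, with no overlap of the 4 intervals.

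The split between the chromosome groups differed between classes in each of the 4 libraries. Chromosome 3 genes gave 93.4, 92.2, 92.2 and 90.1% of member UMIs in neutrophils and 67.9, 73.9, 71.7 and 71.3% in macrophages and monocytes. In T cells they gave 45.5, 47.8, 45.8 and 47.7%, and in NK cells 48.5, 48.4, 50.4 and 48.8%. The lowest shares were in γδ T cells, at 24.4, 31.0, 33.9 and 38.3% of few cells (37, 16, 54 and 38). The shares of neutrophils, of macrophages and monocytes, and of T cells did not overlap between classes in any library.

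In macrophages and monocytes, the class that held most GBP RNA, the summed level differed little between libraries, while Gbp2b was lower after every treatment. The sum was 1096 (1084 to 1109), 979 (970.0 to 988), 987 (977 to 997) and 952 (941 to 963) CPM, over 4014, 5896, 7245 and 8122 cells. The log2 difference from untreated was -0.16 with ADU-S100, -0.15 with anti-LTβR and -0.20 with the combination, and the ADU-S100 value became 0.04 relative to the median gene, so it had no stable direction. A difference of 1.5-fold or more was called past the fold: 2 of 9 members (Gbp2b and Gbp8) were lower past it with ADU-S100, against 12.3% of all tested genes, 1 of 9 (Gbp2b) with anti-LTβR, against 3%, and 1 of 9 (Gbp2b) with the combination, against 3.15%. No member was higher past the fold in any treatment, against 5.4, 3.51 and 3.8% of all tested genes. The median over the 9 members was -0.26, -0.25 and -0.27 on the log2 scale, beside -0.20, -0.05 and -0.09 over all tested genes.

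Gbp2b in this class gave log2 differences from untreated of -2.10 [-2.24, -1.96] with ADU-S100, -1.27 [-1.39, -1.14] with anti-LTβR and -0.72 [-0.84, -0.60] with the combination. Relative to the median gene, the ADU-S100 value was -1.89. The combination library lay above the ADU-S100 library by 1.38 [1.23, 1.53], and Gbp2b was the 1 of 9 members higher past the fold in that comparison, against 6.33% of all tested genes. It lay above the anti-LTβR library by 0.55 [0.41, 0.68], within the fold. With clusters weighted as in the untreated library the differences were smaller, at -1.39, -0.71 and -0.51, and the last lay within the fold. After thinning every cell to 2000 UMIs the combination difference was -0.53, also within the fold.

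Gbp8, whose untreated level was the third highest in this class, was at 142, 94.3, 109 and 117 CPM, and its ADU-S100 difference of -0.59 [-0.65, -0.52] lay at the fold. It was -0.38 relative to the median gene and -0.34 with clusters weighted as in the untreated library. The untreated library was the highest for Gbp8, and the treated libraries lay in the order combination, anti-LTβR and ADU-S100.

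Gbp2 and Gbp5 did not share this order. Gbp2 was 0.22, 0.17 and 0.03 from untreated on the log2 scale and 0.42 relative to the median gene with ADU-S100, while weighting clusters as in the untreated library turned it to -0.09 with anti-LTβR and -0.12 with the combination. Gbp5 was 0.21 with ADU-S100, -0.16 with anti-LTβR and -0.19 with the combination, and 0.05, -0.39 and -0.30 with the same weighting. Over the pooled class the ADU-S100 library was thus the highest of the 4 for both genes, within the fold. Clusters differed: Gbp2 was higher than untreated with ADU-S100 in 5 of 7 clusters, with values from -0.61 to 1.16. Gbp5 was higher in 4 of 7, with values from -0.41 to 1.24.

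The remaining members lay lower than untreated in all 3 treatments, within the fold, though Gbp3 with ADU-S100 turned higher relative to the median gene. Gbp7, which takes part in autophagy and oxidative defense, was at 203, 169, 177 and 181 CPM. Gbp3 was at 98.1, 89.3, 90.8 and 81.4 CPM, and its ADU-S100 difference of -0.14 became 0.07. Gbp4 was at 94.5, 70.7, 79.8 and 68.6 CPM, Gbp9 at 60.2, 51.3, 49.7 and 46.8 CPM, and Gbp6 differed from untreated by -0.50, -0.44 and -0.46 on the log2 scale.

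**Figure D2:**
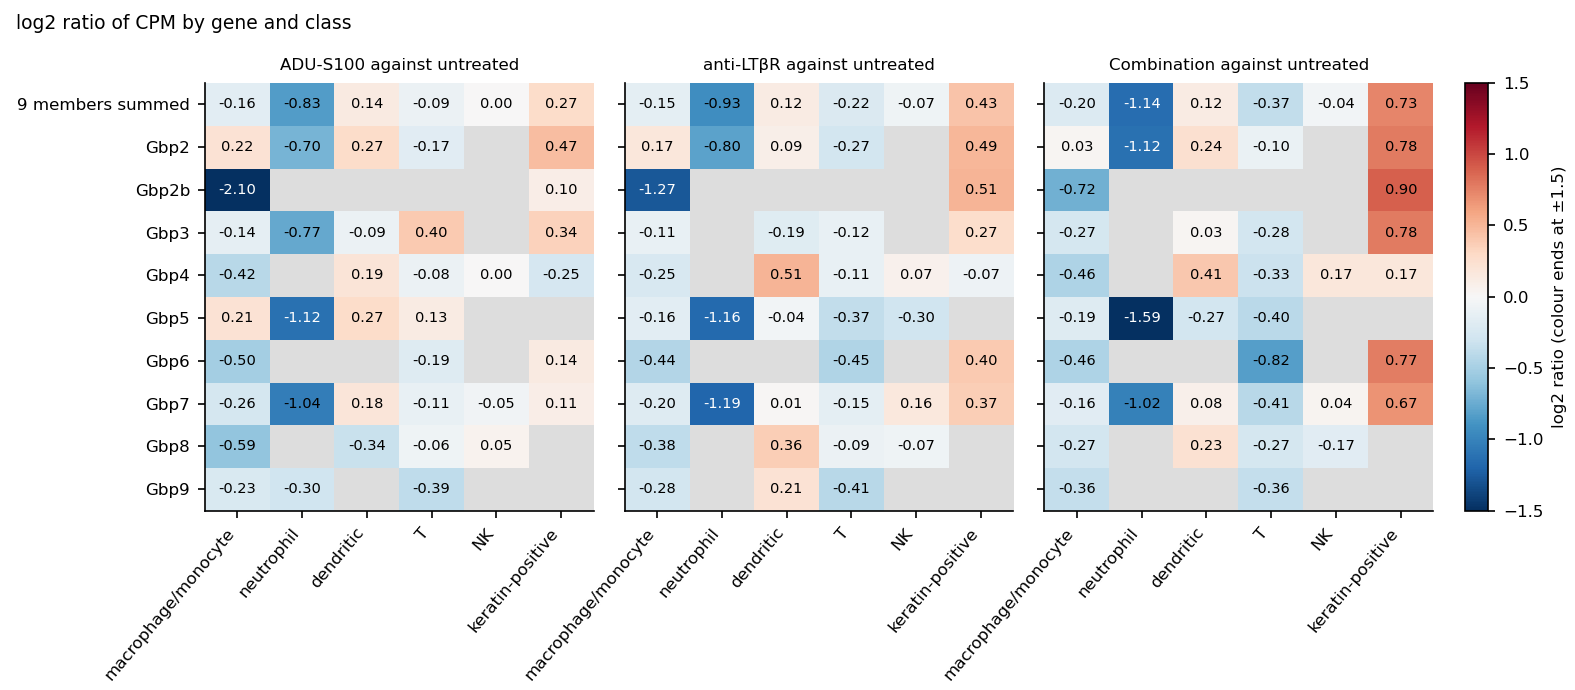
Log2 ratio of CPM in each treatment to untreated (colour, printed in each cell) for the sum and the 9 members in 6 cell classes, with cells of fewer than 200 UMIs over both libraries in grey. Gbp2b in macrophages and monocytes is at -2.10, -1.27 and -0.72, and Gbp2, Gbp5 and Gbp7 in neutrophils lie at -0.70 to -1.59. The ADU-S100 values are not corrected for the median gene, which turns the summed macrophage and monocyte value from -0.16 to 0.04.

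The class was made of clusters that differed in GBP level and whose shares differed between libraries. Monocyte-like cluster 0, led by Sirpd, Ly6i and Chil3, summed to 1491, 1266, 1027 and 1089.9 CPM. Complement-expressing macrophage cluster 2, led by Apoe, Ccl12 and C1qa, summed to 1135, 1039, 1021 and 982 CPM. Cluster 6, led by Mmp12, Gpnmb and Hspa1b, held the lowest sums of the 7 clusters with at least 50 cells in each library, with 445, 373.5, 498 and 407 CPM.

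Cluster 4, led by AA467197, Il6 and Clec5a and with Nos2 among its first 10 genes, was the 1 of these 7 with a higher sum than untreated in the combination library, with 1159, 1136, 1439 and 1371 CPM. Its log2 difference was 0.31 [0.25, 0.37] with anti-LTβR and 0.24 [0.17, 0.31] with the combination, while cluster 0 gave -0.54 [-0.58, -0.50] and -0.45 [-0.50, -0.41]. Cluster 4 made up 7.75% of the class in the untreated library and 22.8, 20.5 and 12.3% in the treated ones.

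Gbp2b was lower than untreated in 7 of these 7 clusters with ADU-S100, in 7 of 7 with anti-LTβR and in 6 of 7 with the combination. Its level was highest in cluster 2, at 83.8, 39.1, 62.7 and 69.1 CPM. Next were cluster 9, led by Ccl8, Cbr2 and Igf1, at 74.3, 25.3, 28.8 and 30.9 CPM, and the cycling cluster 12, led by Top2a, Pclaf and Stmn1, at 55.8, 25.2, 32.2 and 37.0 CPM. It was lowest in cluster 4, at 6.26, 2.50, 2.69 and 4.66 CPM. In monocyte-like cluster 0 it was at 31.8, 3.38, 10.1 and 11.4 CPM, and in cluster 3, led by Nrg1, St7 and Gab1, at 41.1, 2.74, 10.3 and 23.4 CPM. Cluster 6 was the exception with the combination, at 7.64, 3.23, 6.59 and 8.19 CPM. Cells with no UMI of the carcinoma marker list gave 52.35, 12.04, 21.64 and 32.02 CPM.

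**Figure D3:**
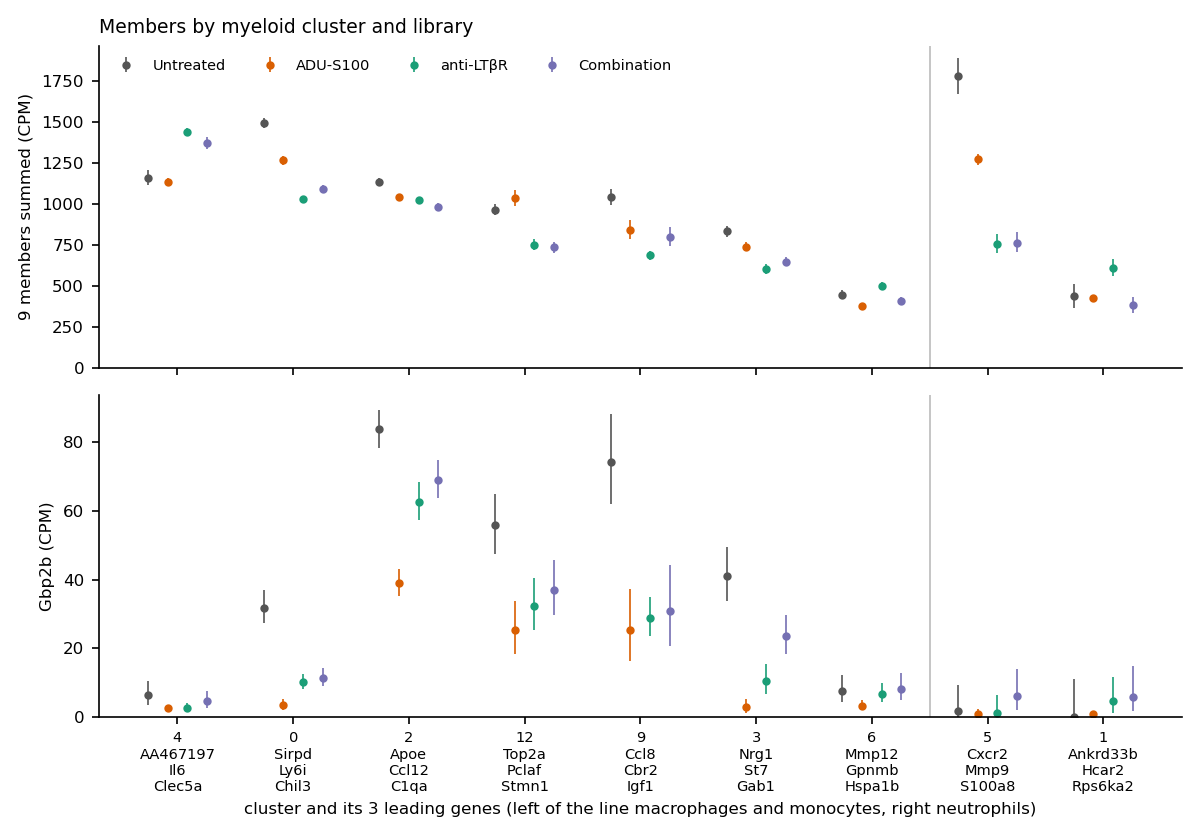
Summed members (top) and Gbp2b (bottom), both in CPM from 0, in 7 macrophage and monocyte clusters and 2 neutrophil clusters, with 1 point per library and exact Poisson 95% intervals as bars. Gbp2b is highest in the untreated library in 6 of the 7 macrophage and monocyte clusters, and the sum of cluster 4 is higher with anti-LTβR and the combination (1439 and 1371 CPM) than untreated (1159 CPM).

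Neutrophils of the untreated library held the highest GBP level of the main leukocyte classes, with monocytes and macrophages pooled, and each treated library lay lower. Untreated monocyte clusters held 1049.7 CPM of chromosome 3 members and 342.1 of chromosome 5 members, against 1214.2 and 86.0 in neutrophils. The rank thus rests on the pooling. The neutrophil sum was 1300.2 (1228 to 1376), 729 (714 to 745), 683 (645 to 722) and 590.0 (552 to 630.0) CPM, over 494, 5283, 973 and 1289 cells. The log2 difference was -0.83 [-0.92, -0.75] with ADU-S100, or -0.60 relative to the median gene, -0.93 [-1.05, -0.81] with anti-LTβR and -1.14 [-1.27, -1.01] with the combination. Of the members with at least 200 UMIs over both libraries, 4 of 5 were lower past the fold with ADU-S100, against 22.4% of all tested genes, 3 of 3 with anti-LTβR, against 6.73%, and 3 of 3 with the combination, against 4.78%. No member was higher past the fold, against 6.71, 5.14 and 3.53% of all tested genes. The fifth member tested with ADU-S100, Gbp9, was within the fold, at 36.6, 29.8, 19.2 and 22.4 CPM. Gbp2b, Gbp4, Gbp6 and Gbp8 had too few UMIs to be counted, and Gbp2b was at 1.08, 0.904, 2.82 and 5.93 CPM, from 1 to 11 UMIs.

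Gbp2 in neutrophils was at 646, 398, 370.0 and 297 CPM, with log2 differences of -0.70 [-0.82, -0.58], -0.80 [-0.97, -0.64] and -1.12 [-1.30, -0.94]. Gbp5 was at 299, 138, 134 and 99.5 CPM, with -1.12 [-1.30, -0.93], -1.16 [-1.42, -0.91] and -1.59 [-1.88, -1.30]. Gbp7 was at 212, 103, 93.1 and 105 CPM, with -1.04 [-1.26, -0.82], -1.19 [-1.49, -0.88] and -1.02 [-1.33, -0.71]. For all 3 genes the untreated library stood above the treated ones with no overlap of intervals. Gbp3, the fourth gene past the fold with ADU-S100, was at 55.9, 32.9, 29.9 and 23.7 CPM, and its difference of -0.77 was -0.53 relative to the median gene, while that of Gbp2 was -0.47, both within the fold. Gbp7 with the combination was -0.58 without doublet removal, within the fold.

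Neutrophils formed 2 clusters, and these differed. Cluster 5, led by Cxcr2, a chemokine receptor, Mmp9, a granule protease, and S100a8, summed to 1778, 1272, 757 and 764 CPM, with log2 differences of -0.48 [-0.58, -0.39], -1.23 [-1.37, -1.09] and -1.22 [-1.36, -1.08]. Cluster 1, led by Ankrd33b, Hcar2 and Rps6ka2, summed to 435, 423, 608 and 381 CPM, with -0.04 [-0.28, 0.21], 0.48 [0.21, 0.76] and -0.19 [-0.49, 0.11]. Cluster 5 made up 60.5, 33.2, 44.6 and 52.9% of neutrophils, so the cluster with the higher GBP level was a smaller part of the class in the treated libraries. The macrophage marker list in neutrophils summed to 527, 315, 373 and 547 CPM, and its part in the neutrophil levels was not tested.

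Dendritic cells showed no member past the fold in either direction among those with at least 200 UMIs over both libraries. Below that minimum, Gbp6 was at -0.60 with ADU-S100, and Gbp2b at 0.99 with anti-LTβR and 1.04 with the combination. The sum in dendritic cells was 511, 562, 554 and 554 CPM over 627, 487, 793 and 774 cells, with log2 differences of 0.14, 0.12 and 0.12. The counts were 0 of 6 members with ADU-S100, against 7.18% of all tested genes, 0 of 7 with anti-LTβR, against 6.23%, and 0 of 6 with the combination, against 7.3%. The ADU-S100 value was 0.014 after thinning every cell to 2000 UMIs, and the combination value 0.020 as a mean over cells. Within the class, type 2 conventional DCs summed to 707, 717, 638 and 686 CPM and mature DCs, which carry antigen to lymph nodes, to 622, 644, 673 and 614 CPM. Gbp2 in mature DCs was at 162, 223, 211 and 208 CPM, with the untreated library lowest, and Gbp5 there was lowest in the combination library, with a log2 difference of -0.51 [-0.86, -0.17]. The mix of subtypes differed as well: type 1 DCs were 124 of 627 dendritic cells untreated and 52 of 487, 81 of 793 and 103 of 774 in the treated libraries. With the combination, type 1 DCs differed from untreated by -0.68, type 2 DCs by -0.04 and mature DCs by -0.02. Within type 1 DCs the mature DC marker list summed to 81.9, 226.8, 89.15 and 339.8 CPM. The macrophage list there summed to 312, 462, 65.2 and 219 CPM and the neutrophil list to 3.86, 1005, 37.3 and 15.5 CPM, and their part was not tested. In dendritic cells the macrophage marker list summed to 453, 517, 855 and 1419 CPM and the neutrophil list to 11.2, 695, 116 and 68.0 CPM, and their part in the GBP values was not tested. Plasmacytoid DCs, the specialized makers of type I interferon, summed to 252, 198, 453 and 480.3 CPM over 69, 62, 115 and 38 cells, with log2 differences of -0.35 [-0.84, 0.14], 0.84 [0.46, 1.24] and 0.93 [0.40, 1.45]. With the combination they were thus the 1 subtype of the 4 that lay in the direction of the pooled class.

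T cells were highest in GBP level untreated and lowest with the combination, and their make-up differed between libraries. Their sum was 752 (729 to 775), 707 (675 to 741), 644 (625 to 664) and 581 (555 to 607) CPM over 1397, 589, 2015 and 1654 cells, with log2 differences of -0.09, -0.22 and -0.37. Past the fold were 0 of 8 members with ADU-S100, against 6.83% of all tested genes, 0 of 8 with anti-LTβR, against 6.21%, and 1 of 8 with the combination, against 5.64%. The member past the fold was Gbp6, at 111, 97.0, 81.0 and 62.7 CPM and a log2 difference of -0.82 [-1.05, -0.60] with the combination. Gbp7, the most abundant member in T cells, was at 162, 149.6, 146 and 122 CPM, Gbp5 at 54.4, 59.4, 42.2 and 41.1 CPM and Gbp9 at 60.7, 46.5, 45.6 and 47.3 CPM. Gbp3, at 38.7, 50.9, 35.7 and 31.9 CPM, was highest with ADU-S100, 0.40 [0.07, 0.72] from untreated. Cluster 20, led by Foxp3, Il2ra and Ctla4 and high in GBP level (1089 CPM untreated), made up 17.5, 11.7, 9.68 and 6.35% of T cells, and cluster 7, led by Sidt1, Tcf7 and Lef1 (792 CPM untreated), 17.4, 30.2, 40.8 and 43.8%. Within clusters, the combination difference was -0.04 [-0.26, 0.18] in cluster 20, -0.39 [-0.53, -0.25] in cluster 7, -0.63 [-0.82, -0.43] in cluster 13, led by Cd4, Tnfsf8 and Rora, and -0.23 [-0.40, -0.07] in cluster 14, led by Cd8a, Cd8b1 and Rgs16. In T cells the macrophage marker list summed to 466, 178, 302 and 621 CPM and the neutrophil list to 42.1, 430.5, 19.0 and 66.5 CPM, and their part in the GBP values was not tested.

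CD4+ T cells carried more of the difference than CD8+ T cells by value. They summed to 1026, 852, 806 and 601 CPM, with a log2 difference of -0.77 [-0.98, -0.57] with the combination, whereas CD8+ T cells summed to 596, 590.0, 530.0 and 513 CPM, with -0.21 [-0.34, -0.09]. Cells were assigned to these subsets by UMIs of Cd4, Cd8a and Cd8b1, which depends on depth. NK cells had sums of 575, 576, 548 and 559.7 CPM and 0 of 3, 0 of 4 and 0 of 3 members past the fold, against 4.09, 2.47 and 4.21% of all tested genes. Gbp7, Gbp4 and Gbp8 led there, Gbp7 at 134, 129.6, 150.3 and 138 CPM, Gbp4 at 95.5, 95.5, 100.2 and 107 CPM and Gbp8 at 111, 115, 106 and 98.9 CPM. The log2 difference of the NK sum was 0.00 [-0.14, 0.14], -0.07 [-0.19, 0.05] and -0.04 [-0.19, 0.11]. With the combination the 2 NK clusters went opposite ways, -0.24 [-0.43, -0.06] in cluster 10, led by Gzma, Gzmc and Klrb1c, and 0.35 [0.09, 0.62] in cluster 17, led by Clnk, Gm2682 and Dscam.

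A cluster of 145, 222, 200 and 274 cells outside the leukocyte classes expressed the keratins Krt8, Krt18 and Krt19 and Msln, while Epcam, Cldn4 and Krt7 were at or near 0. It is called keratin-positive here. Its list of 7 carcinoma markers summed to 756 to 894 CPM with 1 to 3 of them at 0, and the sort for CD45 should have removed such cells. Its summed GBP level was 925 (874 to 979), 1119 (1064 to 1176), 1246 (1195 to 1299) and 1535 (1476 to 1597) CPM, with log2 differences of 0.27, 0.43 and 0.73, so the sum was higher than untreated in all 3 treated libraries. Gbp2b was at 127, 136, 180.1 and 237 CPM, above any leukocyte class, and Gbp2 at 296, 409, 416 and 507 CPM. Median depth of these cells was 8443, 2976.5, 8662 and 4784 UMIs, and after thinning to 2000 UMIs, which kept 107, 132, 175 and 197 cells, the sum was 953, 1473, 1291 and 1477 CPM. The treated libraries thus stayed above untreated, with ADU-S100 above anti-LTβR. Markers of other cells also differed between libraries in this cluster. The neutrophil list summed to 7.68, 881, 615 and 152 CPM. The fibroblast list, above the carcinoma list in every library, summed to 2341, 2236, 1817 and 1106 CPM. The monocyte list summed to 7255, 7205, 7695 and 10040 CPM, but the macrophage list to 51.4, 272, 171 and 192 CPM. The monocyte list includes Fn1 and was not split by gene, so which cells it marks here was not tested. The part of these lists in the GBP values was not tested.

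Over all leukocytes together, where the make-up of the sample enters, the sum was 954, 879, 825 and 792 CPM. The log2 difference from untreated was -0.12, -0.21 and -0.27, and 0.26 and -0.12 relative to the median gene with ADU-S100 and the combination. The direction with ADU-S100 thus depended on the scaling. In this pooled sum a change in the number of cells of a class and a change in RNA per cell cannot be told apart.

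Interferon-γ, the cytokine that induces the family, came from lymphocytes, and its level over all leukocytes was lower than untreated in each treated library. Ifng was at 30.3 (28.7 to 32.0), 10.3 (9.57 to 11.1), 22.2 (21.1 to 23.4) and 17.3 (16.1 to 18.6) CPM, from 1324, 690, 1366 and 777 UMIs. The log2 difference was -1.56 [-1.69, -1.42] with ADU-S100, -0.45 [-0.56, -0.34] with anti-LTβR and -0.81 [-0.94, -0.68] with the combination. T cells held 91.7, 82.3, 79.5 and 82.8% of its UMIs and NK cells 7.85, 16.1, 16.5 and 14.9%. CD8+ T cells alone held 77.6, 76.4, 57.4 and 59.3% and CD4+ T cells 7.40, 3.19, 9.22 and 11.5%. T cells with UMIs of neither or of both markers fell outside these subsets, so the subset shares depend on depth. The order of the libraries over all leukocytes followed the share of T cells among leukocytes, lowest with ADU-S100. In RNA of whole tumors the study reports Ifng as significantly elevated with the combination. That is a different measure from CPM of sorted leukocytes.

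Within T cells the Ifng level differed less, at 214, 229.6, 162 and 190.1 CPM, with log2 differences of 0.10 [-0.04, 0.25], -0.40 [-0.52, -0.28] and -0.17 [-0.31, -0.03]. CD8+ T cells were at 357, 485, 293 and 280.3 CPM, but 210 of the 527 UMIs with ADU-S100 lay in 3 cells, against 168 of 1028 untreated. The share of CD8+ T cells with an Ifng UMI was instead highest untreated, at 43.6, 32.9, 27.0 and 23.0%, and 27.6, 23.5, 20.9 and 21.3% in cells thinned to 2000 UMIs. NK cells were at 69.4, 71.6, 84.7 and 106 CPM, highest by value with the combination, which lay 0.33 [-0.01, 0.66] above anti-LTβR. Their share with an Ifng UMI was 14.5, 13.6, 13.9 and 11.0%, and 10.9, 7.66, 11.3 and 14.1% in cells thinned to 2000 UMIs. CD4+ T cells were at 99.2, 48.7, 99.8 and 218 CPM, where 68 of the 89 UMIs of the combination library lay in 3 cells. The 3 cells with most Ifng over all leukocytes held 168, 210, 116 and 109 UMIs, so single cells weigh on these values.

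Ifng was detected in 21.2, 14.9, 14.4 and 12.8% of T cells, and in 15.4, 11.2, 12.8 and 14.8% of those thinned to 2000 UMIs. Macrophages and monocytes, which should lack it, gave 0.0997, 0.0678, 0.179 and 0.0862%, with median depths of 6499, 6987, 4711 and 2893 UMIs against 3404, 3758, 2888 and 1694 in T cells. The lower unthinned share of the combination library went with its lower depth. Macrophages and monocytes held 4, 4, 20 and 8 Ifng UMIs in all, and neutrophils 1, 3, 2 and 3.

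**Figure D4:**
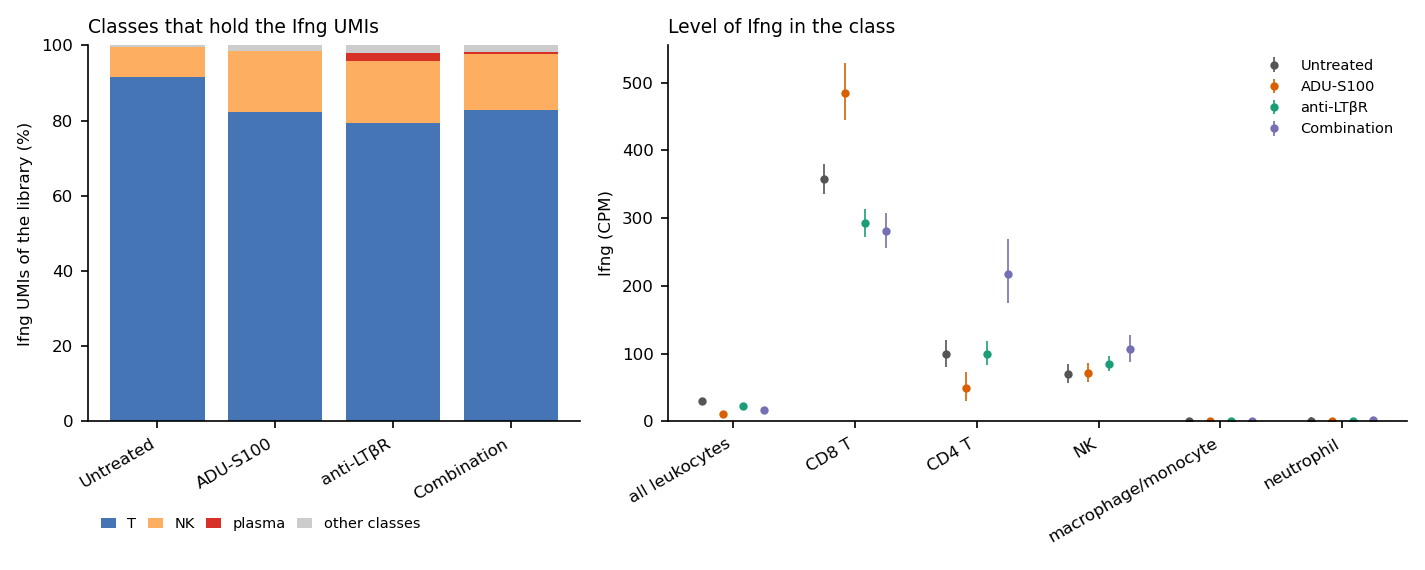
Left, percent of all Ifng UMIs of a library in T cells, NK cells, plasma cells and other leukocytes, as stacked bars; right, Ifng level in CPM over all leukocytes and in 5 classes, with exact Poisson 95% intervals as bars. T cells hold 79.5 to 91.7% of Ifng UMIs, and the level over all leukocytes is lowest with ADU-S100 at 10.3 CPM. The CD8+ T cell value of 485 CPM with ADU-S100 rests in part on 3 cells with 210 of 527 UMIs.

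Set beside each other, Ifng over all leukocytes and Gbp2b in macrophages and monocytes were both highest untreated and lowest with ADU-S100, but differed in the order of the other libraries. Gbp2b was at 53.1, 12.4, 22.1 and 32.3 CPM and Ifng at 30.3, 10.3, 22.2 and 17.3 CPM, so anti-LTβR lay above the combination for Ifng and below it for Gbp2b. Gbp2 and Gbp5 over the same pooled class were highest in the library with the lowest Ifng, though not in every cluster. With 4 libraries no correlation was computed.

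Other genes of the interferon-γ pathway in macrophages and monocytes were counted from lists chosen together with the members, and each count stands against the shares of all tested genes, lower for 12.3, 3 and 3.15% and higher for 5.4, 3.51 and 3.8% in the 3 treatments. Those shares are unscaled, and no such share was counted relative to the median gene. Of the other GTPases induced by interferon-γ, which like GBPs act at pathogen vacuoles, 7 of 8 in the count matrices were tested. The listed Gm12250 was not found there under that symbol. Lower past the fold were 3 with ADU-S100 (Irgm2, Iigp1 and Tgtp2) and 2 with anti-LTβR and with the combination (Iigp1 and Tgtp2). None was higher, and the medians were -0.45, -0.10 and -0.48. Relative to the median gene, the ADU-S100 count was 2 (Iigp1 and Tgtp2) and the median -0.24. Iigp1 was at 202, 107, 129 and 124 CPM, highest untreated. Of 9 receptor and signaling genes none was lower past the fold and 1 was higher, Jak2 with ADU-S100, joined by Irf1 and Socs1 relative to the median gene. Irf1 was at 137, 191, 176 and 145 CPM.

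Of 8 tested other targets of interferon-γ, Nos2, the inducible nitric oxide synthase, was higher past the fold in all 3 treatments, at 150.5, 353, 351 and 257 CPM. Nos2 is among the first 10 genes of cluster 4, whose share was also higher. Ciita, the regulator of MHC class II, was lower past the fold with ADU-S100 alone, at 203, 107, 198 and 227 CPM, and the T cell chemokine Cxcl9 was at 715, 559, 525 and 591 CPM. Of 8 partners in inflammasomes and autophagy, Nlrp3 was higher past the fold in all 3 treatments (308, 779, 465 and 534 CPM) and Casp4, which acts downstream of GBPs, with ADU-S100 and anti-LTβR (84.9, 152, 130.1 and 115 CPM), with none lower. These calls with ADU-S100 were the same relative to the median gene.

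Of 17 tested type I interferon genes, 5 were lower past the fold with ADU-S100 (Ifit2, Ifit3, Mx1, Cmpk2 and Ifi44), 1 with anti-LTβR (Ifit3) and 3 with the combination (Ifit2, Ifit3 and Mx1), none was higher, and the medians were -0.35, -0.12 and -0.21. Relative to the median gene, 3 were lower with ADU-S100 (Ifit2, Ifit3 and Mx1) and the median was -0.14. The 12.3% of all tested genes lower with ADU-S100 is unscaled, and no share was counted on this scale. Of 5 tested genes of interferon-γ production, 1 was higher and 1 lower with ADU-S100, 1 higher and 2 lower with anti-LTβR and 3 higher and 1 lower with the combination, and relative to the median gene 3 were higher and 1 lower with ADU-S100. Il12b, a subunit of the cytokine that drives interferon-γ production, was at 8.79, 12.6, 3.24 and 14.4 CPM.

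In neutrophils the other GTPases lay lower with the members, where 22.4, 6.73 and 4.78% of all tested genes were lower and 6.71, 5.14 and 3.53% higher past the fold. All 4 tested were lower past the fold with ADU-S100 (Igtp, Irgm1, Irgm2 and Ifi47), 3 of 3 with anti-LTβR and 3 of 3 with the combination (Igtp, Irgm1 and Ifi47). Igtp was at 144, 67.6, 73.9 and 73.8 CPM. Of the other targets of interferon-γ, 2 of 6 tested were lower past the fold with ADU-S100 (Psmb8 and Psmb9) and 1 was higher (Nos2), 3 of 4 were lower with anti-LTβR (Cxcl10, Psmb8 and Psmb9) and 2 of 4 with the combination (Psmb8 and Psmb9). Psmb8, an immunoproteasome subunit, was at 220.5, 126, 111 and 133 CPM, and Nos2 differed from untreated by 1.22 on the log2 scale with ADU-S100. Relative to the median gene, 2 of the 4 GTPases (Igtp and Irgm2) stayed past the fold with ADU-S100, while of the 6 targets none was lower and 2 were higher (Cd274 and Nos2). The shares of all tested genes above are unscaled, and none was counted relative to the median gene. Of the type I interferon genes, 2 of 14 were lower with ADU-S100, or 1 relative to the median gene, and 0 of 10 with either other treatment.

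Likeness to the summed members was described by correlation. Over 37 sums of a class in a library, and among 9671 genes, the highest Pearson r of log2(CPM + 1) belonged to Rtp4 (0.89), Ddit4 (0.86), Fosl2 (0.84) and Ifit3 (0.83), and of these Rtp4 and Ifit3 stand in the type I interferon list. The other genes of the lists spread widely over these sums, with Ifit1 (0.78), Irgm2 (0.74), Cxcl10 (0.73) and Casp1 (0.73) near the top and Ifng itself (0.16), Mx1 (-0.06) and Psmb8 (-0.20) far below. Over 34 sums of a macrophage or monocyte cluster in a library, it belonged to Sppl2a (0.87), Dhx58 (0.85), Batf2 (0.84) and Sp110 (0.83), with the GTPases Irgm1 (0.81) and Igtp (0.80) among the first 10, while Ifng was at -0.24. Points of 1 library share its depth and preparation, and points of 1 cluster share its cells' definition. Among the members, Gbp4 and Gbp8 were most alike over classes (r = 0.92) and Gbp2 and Gbp3 over clusters (0.87), while Gbp2b and Gbp5 were least alike over clusters (-0.35).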

How the data were processed

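Single-cell 5′ RNA libraries of sorted CD45+ cells were analysed, 4 in all and 1 per group, with tumors pooled within a group. The deposited matrices hold raw UMI counts per gene and cell; per the file headers the authors made them with Cell Ranger 8.0.1, while the submitters' processing notes name version 7.1.0 and build mm10. The labels name a later version of the 5′ kit than the methods of the study. No normalization had been applied. Depth ranged from 52109958 to 85855398 deposited UMIs per library, which sets the counting intervals given with each level. The study is the second of 2 experiments with the same treatments; the other is not analysed here.

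Cells with 300 to 5000 genes and at most 6% mitochondrial UMIs were kept, as in the methods of the study. Scrublet marked at most 1 cell per library with its automatic threshold, so the highest scores, 0.4% per 1000 deposited cells (305 to 1066 cells), were called doublets, which removed 260 to 1026 cells within the other limits. Cells were clustered together (scanpy 1.11.5, 2000 variable genes, 30 components, 20 neighbors, leidenalg 0.10.2 at resolution 1), with GBP, Ifng and other interferon genes kept out of the variable genes. Clusters were named from marker lists under limits set after the data were seen, so class shares may differ from those under the names of the study.

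UMIs were summed per class and library and given as CPM with exact Poisson intervals; ratios and shares have exact binomial intervals (scipy 1.17.1). With 1 library per group there is no replicate check and no p-value. A gene was counted past the fold at 1.5-fold or more (0.585 on the log2 scale) with at least 200 UMIs over both libraries. Intervals and calls were tried on simulated counts with Poisson error alone, which cannot speak to the spread between mice, and the outcome is not reported here. Alternatives were scaling by the median gene, immunoglobulin genes out of the total, no doublet removal, resolution 2, interferon genes in the clustering, cells named singly, thinning to 2000 UMIs, means over cells and no minimum of UMIs. Genes named in the text are the 9 members, Gbp10 and Gbp11, the pathway lists and the 10 genes most like the summed members, from sums of at least 50 cells and genes with at least 1000 UMIs; examples within lists were chosen after their values were seen, and some of these genes are not reported here. The members and lists were chosen with earlier results of these data known. RefSeq windows of build GRCm38.p6 served for sequence alone, since the matrices hold no coordinates.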

Additional observations from a re-analysis of the deposited data

Results flagged for a closer look

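The summed GBP level went in opposite directions in some classes of the same library, and none of these differences was tested because each group is 1 library. Between macrophages and monocytes, which were lower than untreated, and dendritic cells, which were higher, the log2 differences lay 0.30 apart with ADU-S100, 0.27 with anti-LTβR and 0.32 with the combination. Against the keratin-positive cells they lay 0.44, 0.58 and 0.93 apart. The macrophage and monocyte value with ADU-S100 changes sign when scaled by the median gene, and the dendritic values with ADU-S100 and the combination come near 0 under other settings. Type 1 DCs, low in GBP level, were 124 of 627 dendritic cells untreated and 52 of 487, 81 of 793 and 103 of 774 in the treated libraries. Within type 2 DCs the differences were 0.02, -0.15 and -0.04 and within mature DCs 0.05, 0.11 and -0.02, so with the combination neither showed the direction of the pooled dendritic cells. Plasmacytoid DCs, in the same pooled class, did, at 252, 198, 453 and 480.3 CPM over 69, 62, 115 and 38 cells. The macrophage marker list in dendritic cells summed to 453, 517, 855 and 1419 CPM, and its part was not tested.

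Clusters of 1 class also went opposite ways. With ADU-S100, macrophage cluster 9 (Ccl8, Cbr2 and Igf1) was lower and the cycling cluster 12 (Top2a, Pclaf and Stmn1) higher, 0.41 apart. With anti-LTβR, cluster 9 was lower and cluster 4 (AA467197, Il6 and Clec5a) higher, 0.91 apart. With the combination, cluster 0 (Sirpd, Ly6i and Chil3) was lower and cluster 4 higher, 0.69 apart. In neutrophils with anti-LTβR, cluster 5 (Cxcr2, Mmp9 and S100a8) was lower and cluster 1 (Ankrd33b, Hcar2 and Rps6ka2) higher, 1.71 apart. In NK cells with the combination, cluster 10 (Gzma, Gzmc and Klrb1c) was lower and cluster 17 (Clnk, Gm2682 and Dscam) higher, 0.60 apart.

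Cells left out for having over 5000 genes held GBP transcripts as well. Their sum was 1080.9 CPM in 498 cells of the untreated library, 1142.7 CPM in 337 cells with ADU-S100, 981 CPM in 190 cells with anti-LTβR and 1380.0 CPM in 48 cells with the combination, so the ADU-S100 and combination libraries lay above untreated. Gbp2b in these cells was at 86.4, 91.3, 76.6 and 131 CPM. The carcinoma marker list in them summed to 426, 498, 503 and 607 CPM, against 34.9, 23.2, 34.1 and 47.2 CPM in kept cells, and the macrophage list to 12080, 10115, 6542 and 5102 CPM; their part in the GBP values was not tested.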

How the results depend on the processing

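Of 118 member differences recomputed under the alternatives, 961 of 998 values kept their sign, and the 21 past the fold kept it in all 176 values, with 158 still past the fold. The summed macrophage and monocyte difference with ADU-S100 (-0.16) became 0.042 scaled by the median gene, -0.19 without doublet removal, -0.19 at resolution 2, -0.23 thinned to 2000 UMIs, -0.22 as a mean over cells and -0.14 with clusters weighted as in the untreated library. With anti-LTβR (-0.15) it became -0.10 scaled and -0.25 weighted, and with the combination (-0.20) -0.11 scaled, -0.15 thinned, -0.23 as a mean over cells and -0.25 weighted. In dendritic cells, naming each cell by its own markers gave 0.23, 0.25 and 0.27 for the 3 treatments (0.14, 0.12 and 0.12 as reported), thinning gave 0.014 with ADU-S100 and a mean over cells 0.020 with the combination. The T cell difference with the combination (-0.37) was -0.47 thinned. Ifng over all leukocytes with ADU-S100 (-1.56) was -1.18 scaled, -1.41 without doublet removal and -1.83 as a mean over cells; with anti-LTβR (-0.45) it was -0.31 thinned, within the fold as before, and with the combination (-0.81) -0.66 scaled and -0.59 as a mean over cells. Over 5 classes, 6, 4 and 5 member differences were lower past the fold. With no minimum of UMIs these were 11, 9 and 8, and 0, 2 and 2 were higher, and scaled by the median gene 3 were lower with ADU-S100. The cause was not tested, except that more genes are counted with no minimum. No share of all genes past the fold was counted with no minimum or after scaling, so these counts have no general rate beside them. Weighting by clusters and leaving out cells with a carcinoma-marker UMI were chosen after seeing the data. No paired analysis was possible because each group is 1 library, and for the same reason no replicate could be left out. Depth limits members under 200 UMIs, among them Gbp4, Gbp6 and Gbp8 in neutrophils and 5 or 6 of the 9 members in NK cells. Gbp9 in neutrophils was limited outside the ADU-S100 comparison, and Gbp2b in the leukocyte classes other than macrophages and monocytes.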

Other observations

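Within T cells, the subsets differed in GBP level. T cells with Foxp3, the regulatory T cell factor, summed to 1073.7, 830.0, 1183 and 1098 CPM, and γδ T cells, taken by a Trdc UMI and no UMI of Trac, Trbc1 or Trbc2, to 1226, 1345, 750.1 and 639.5 CPM over 37, 16, 54 and 38 cells. B cells were counted in 6, 7, 133 and 213 cells and summed to 224, 355, 358 and 297 CPM, so the levels of the first libraries rest on few cells. Gbp11, outside the set, was at 5.55, 2.23, 3.34 and 3.91 CPM in macrophages and monocytes, with log2 differences of -1.32, -0.73 and -0.51, while Gbp10 was at 0.862, 0.535, 0.283 and 0.617 CPM from 25, 24, 11 and 18 UMIs.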
